A study of Homo sapiens with 10 samples.

Results

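HSF1, the transcription factor that switches on chaperone genes when proteins misfold, was located in HCT116 cells by chromatin immunoprecipitation and sequencing, before and after heat shock. HCT116 is an established human colon cancer line, and the cells compared here were its unmodified form (WT). There were 3 HSF1 libraries from WT cells: 2 from cells kept at 42 °C for 1 h and 1 from untreated cells. All 3 were made with 5 µg of the same HSF1 antibody, and each was deposited as a list of peaks, the stretches of genome where reads piled up. HSF1 peak lists of HCT116 cells lacking FBXW7 (KO), 2 after the same heat shock and 1 untreated, were used only to look up the WT regions. The labels do not say whether the replicates are separate cultures. Overlapping peaks of the 3 WT lists were joined into 317 regions, of the 6597 regions that all 6 lists give, and each region was classed by the lists that hold it. With 1 untreated library the comparison has no test, and the values below are counts, places in an order and the replicates' own disagreement.

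HSF1 waits in unstressed cells as an inactive monomer held back by chaperones. Heat makes proteins unfold, the chaperones leave HSF1, and HSF1 forms trimers that bind heat shock elements, which are alternating GAA and TTC units. Its classical targets encode the chaperones HSP90, HSP70, HSP110 and HSP60, their co-chaperones and ubiquitin, and tumour cells often hold some HSF1 on DNA without any heat. FBXW7 is the part of a ubiquitin ligase that picks proteins for degradation.

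The lists held 225 peaks in heat shock replicate 1, 131 in heat shock replicate 2 and 79 in the untreated library. A total of 39 regions, 12.3% of the 317, had a peak in all 3 lists. Both heat shock replicates but not the untreated list held 23 regions, 7.26% of all. The untreated list alone held 25 regions, 7.89%. A further 10 regions (3.15%) were shared by heat shock replicate 1 and the untreated list, and 5 (1.58%) by heat shock replicate 2 and the untreated list. Most regions were in 1 heat shock replicate and in no other WT list: 152 (47.9%) in replicate 1 and 63 (19.9%) in replicate 2. More regions thus separated the heat shock replicates from each other than separated them jointly from the untreated list. Read depth is unknown, and a region that a list lacks was under the limit of the peak caller in that library, which does not show that HSF1 was absent.

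**Figure D1:**
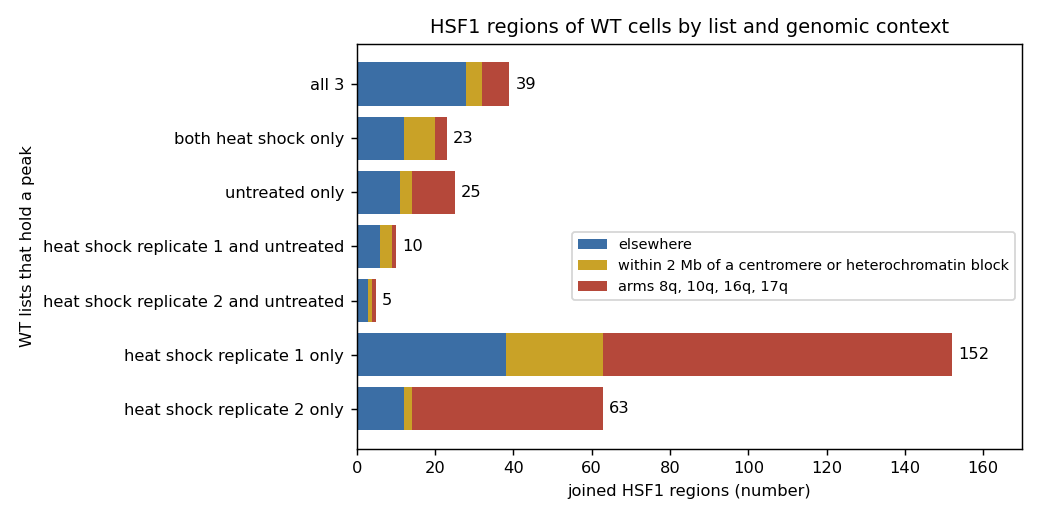
Number of joined HSF1 regions of WT cells (x axis) for each combination of WT lists that hold a peak (y axis), with colours for regions on the 8q, 10q, 16q and 17q arms, near a centromere or heterochromatin block, or elsewhere. The bars of a single heat shock replicate hold 152 and 63 regions and are mostly on the 4 arms, while the bar of all 3 lists holds 39 regions, of which 28 are elsewhere.

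Genes were attached to 53 of the 317 regions from well-known gene positions in hg19, the build of the files; 41 of these regions lie at the start of a gene and 12 inside one. The remaining 264 regions were not assigned, which says nothing about what lies there. Of the 39 regions in all 3 lists, 22 were at a named gene start and 5 inside a named gene. Of the 23 regions held jointly by the heat shock replicates, 8 were at a start and 2 inside a gene, and of the 25 untreated regions 4 were at a start and 2 inside. In heat shock replicate 1 alone 6 of 152 were at a start and 1 inside a gene, and in replicate 2 alone 0 of 63 were named. Names were given by hand and not evenly. An unnamed region of replicate 2 alone, for example, lies right beside the region named inside the HSF1 gene. These counts therefore depend on the naming and do not compare the classes.

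Because HSF1 binds heat shock elements, the named gene starts were searched for them in RefSeq promoter sequences (GRCh38.p14, 250 bases before to 50 after the start, a build other than that of the peaks). The motif was 3 alternating units, GAANNTTCNNGAA or TTCNNGAANNTTC, which are each other's reverse complement and so cover both strands. Promoters were found for 38 of 47 genes and used for 36 genes at 34 regions. An exact match stood in 7 of 34 regions, 20.6%, against 172 of all 35116 promoters, 0.49%. The starts were picked by hand and many are classical HSF1 targets. A region shared by 2 genes could also match in either promoter. The 2 shares are therefore not like for like, and their difference was not tested. By class it stood in 3 of 19 regions of all 3 lists, 1 of 6 of both heat shock replicates, 0 of 3 of the untreated list, 1 of 1 of heat shock replicate 2 with the untreated list, and 2 of 5 of heat shock replicate 1 alone. With 2 units (GAANNTTC or TTCNNGAA) the shares were 35.3% and 13.5%, and with 3 units and 1 mismatch allowed 32.4% and 6.24%. A match describes the letters and not a site in use, and the window can miss an element farther out.

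The exact matches that lie before the start are printed here with the bases around them, 5′ to 3′ on the gene's strand, with the bases that match a unit in capitals. They run from the constitutive HSP70 gene HSPA8, whose peak stood lower in order after heat shock, to genes whose peak was found after heat shock alone.
HSPA8, farther match: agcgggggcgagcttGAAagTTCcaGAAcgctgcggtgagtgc
HSPA8, nearer match: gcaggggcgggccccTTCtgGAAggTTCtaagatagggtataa
PGAM5: GAAccTTCtgGAAagtaccgcgccgccc
ABHD3: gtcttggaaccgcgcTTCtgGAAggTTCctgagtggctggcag
SERPINH1: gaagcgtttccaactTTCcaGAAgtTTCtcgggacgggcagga
CHORDC1: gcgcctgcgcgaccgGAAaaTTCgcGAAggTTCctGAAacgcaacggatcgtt
RBM23: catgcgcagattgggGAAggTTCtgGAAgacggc
The HSPA8 stretches are chr11:123062339-123062381 and chr11:123062164-123062206 on the minus strand, and their motifs begin 230 and 55 bases before the start. That of PGAM5 is chr12:132710592-132710619 (plus strand, 250 bases before the start). ABHD3 has chr18:21704892-21704934 (minus, 145 bases), SERPINH1 has chr11:75562162-75562204 (plus, 76 bases), CHORDC1 has chr11:90223072-90223124 (minus, 60 bases) and RBM23 has chr14:22919150-22919183 (minus, 19 bases). CHORDC1 carries 5 alternating units in a row and the others 3. The match that completes the 7 regions, at DNAJA1, lies just past the start and is not printed.

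With 1 base off the motif allowed, 4 more starts had a match, HSPB1 and CCDC117 of all 3 lists, NUDC of both heat shock replicates and PTGES3 of the untreated list alone. Those of HSPB1, NUDC and PTGES3 before the start are printed, with matching bases in capitals, and with them a near match of DNAJA1, whose exact match lies past the start.
HSPB1: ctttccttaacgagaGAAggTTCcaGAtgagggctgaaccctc
DNAJA1: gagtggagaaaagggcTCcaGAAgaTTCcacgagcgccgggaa
NUDC: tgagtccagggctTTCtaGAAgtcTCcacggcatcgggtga
PTGES3: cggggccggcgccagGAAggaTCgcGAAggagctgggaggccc
These are chr7:76302476-76302518 (plus strand), chr9:33025055-33025097 (plus), chr1:26921493-26921533 (plus) and chr12:56688397-56688439 (minus) of GRCh38.p14. Near matches are more frequent among all promoters than exact ones, as the shares above show.

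The 39 regions of all 3 lists lay mostly in the upper part of each list, with a median rank of 24 in both heat shock lists and 23 in the untreated list. They were put in order within each list by the authors' deposited peak score, and the places from 1 to 39 are compared, since the lists differ in length. Between the heat shock replicates the median difference in place was 3, and 9 of the top 10 regions were shared. Between the untreated list and heat shock replicate 1 it was 8, with 7 of the top 10 shared, and with replicate 2 it was 9, also with 7. Spearman's rank correlation over the 39 regions was 0.82 between the heat shock replicates, 0.46 between replicate 1 and the untreated list, and 0.51 between replicate 2 and the untreated list, given as a description with no test. A region is called placed higher in one condition below only where the untreated place lay outside both heat shock places by more than these differed. On that rule 12 of 39 stood higher after heat shock, 10 stood higher in the untreated list and 17 did neither. The counts of 12 and 10 became 9 and 10 without regions near a centromere or heterochromatin block. They became 8 and 8 with peak centres within 500 bp, and 4 and 4 at a score of at least 100. The small lead of heat shock thus depends on the processing.

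**Figure D2:**
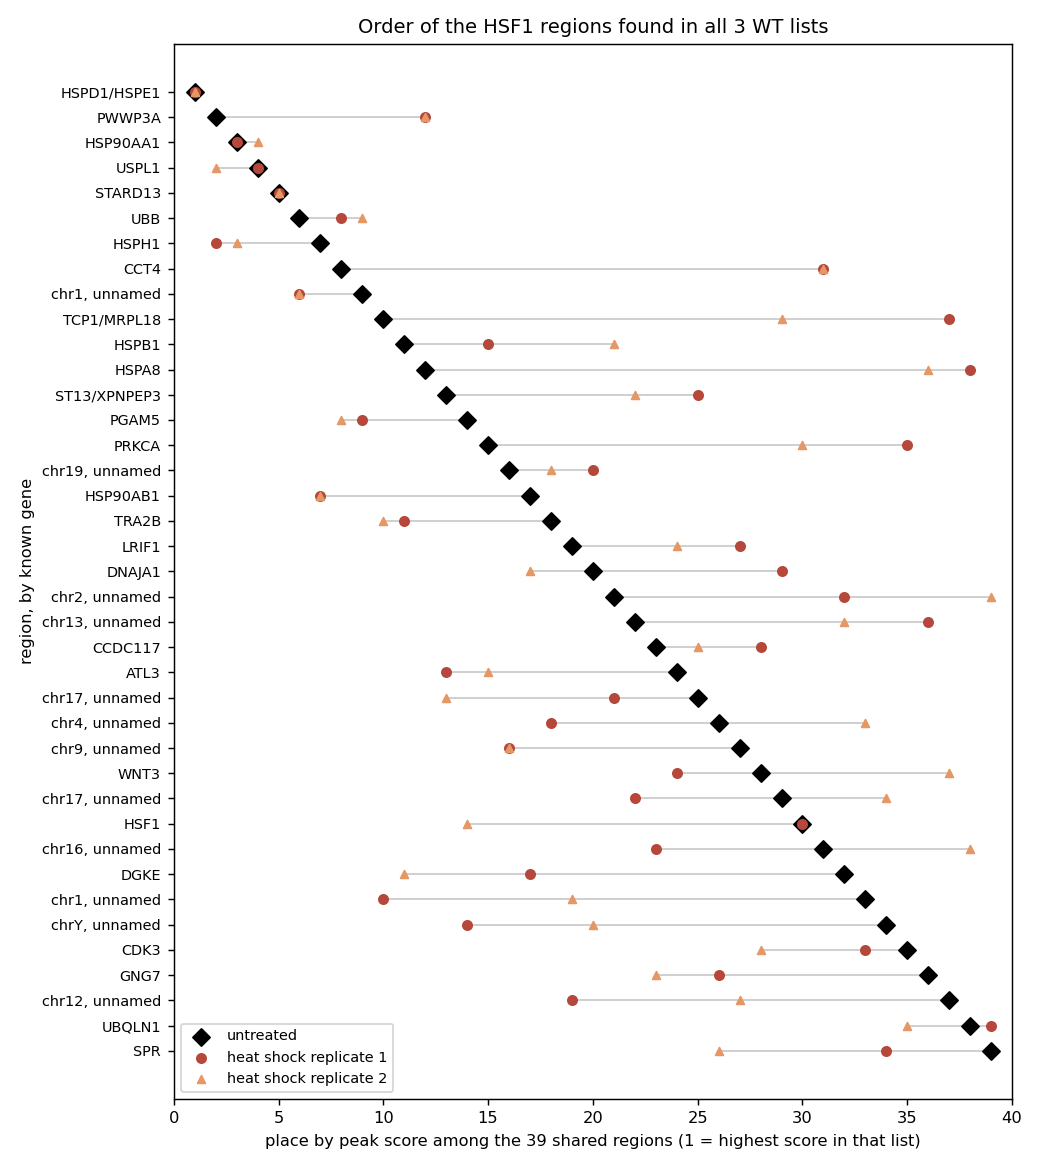
Place of each of the 39 regions found in all 3 WT lists, from 1 for the highest score of that list (x axis), with 1 row a region (y axis) and separate marks for the heat shock replicates and the untreated list. HSPD1/HSPE1 is at place 1 in every list, the marks of HSPH1, HSP90AB1 and DGKE lie farther right in the untreated list, and those of CCT4, TCP1/MRPL18 and HSPA8 lie farther left.

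HSPD1 and HSPE1, the mitochondrial chaperonin HSP60 and its lid HSP10, are transcribed in opposite directions from one shared start region, chr2:198363695-198365679. It had the highest score of each list, 872 and 892 after heat shock and 663 untreated. HSP90AA1, the inducible cytosolic HSP90 (chr14:102552691-102554346), scored 498, 330 and 362 and stood at places 3, 4 and 3. Both genes were therefore at the top of the order with and without heat shock.

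HSP90AB1, the constitutive cytosolic HSP90 (chr6:44213452-44216301), scored 373 and 265 after heat shock and 128 untreated. It stood at place 7 in both heat shock lists and at 17 in the untreated list. HSPH1, the HSP110 that recharges HSP70 with ATP (chr13:31734751-31737082), scored 527, 381 and 206 and stood at 2, 3 and 7. These 2 chaperone genes stood higher after heat shock, while of the 2 cytosolic HSP90 genes only HSP90AB1 moved by this rule.

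HSPA8, the constitutive HSP70 of the cytosol (chr11:122932122-122933742), moved the other way. Its score was 66.4 and 53.7 after heat shock and 164 untreated, but scores are of unstated unit and only places are compared between lists. Its place was 38 and 36 of 39 after heat shock and 12 untreated. It was the only one of the 8 listed HSP70 genes with a WT region at its start. No WT region lay on chromosome 6 before the HSP90AB1 region, the part that holds HSPA1A, HSPA1B and HSPA1L, so these genes had no peak in any WT list, heat shocked or not. HSPA1A and HSPA1B are near-identical copies, and how reads fitting both were handled is not given in the sources used here.

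The TRiC chaperonin, the ring that folds actin and tubulin, had 3 of its 8 subunit genes at a WT region. CCT4 (chr2:62114812-62116441) scored 103 and 68.8 after heat shock and 180 untreated, at places 31, 31 and 8. TCP1, which shares its start with the mitochondrial ribosome gene MRPL18 (chr6:160210167-160211709), scored 80.5, 73.7 and 172, at places 37, 29 and 10. Both stood higher in the untreated list. CCT7, in contrast, was in both heat shock lists and not in the untreated one, so the subunits did not share a direction.

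Co-chaperones and small chaperones of all 3 lists moved less in place than CCT4 and TCP1. ST13, which links HSP70 to HSP90 and starts beside XPNPEP3 (chr22:41251746-41253536), scored 117, 98.2 and 154, at places 25, 22 and 13, higher untreated. HSPB1, the small heat shock protein HSP27 (chr7:75931116-75933524), scored 186, 105 and 168, and DNAJA1, an HSP40 that delivers clients to HSP70 (chr9:33023946-33025956), scored 111, 124 and 104. The places of HSPB1 (15, 21 and 11) and DNAJA1 (29, 17 and 20) did not separate the conditions beyond the gap between the heat shock replicates. UBB, a polyubiquitin gene (chr17:16283375-16285056), scored 290, 239 and 226, at places 8, 9 and 6, higher untreated by a small margin. A region inside the HSF1 gene itself (chr8:145534331-145536247) scored 104, 142 and 68.5, at places 30, 14 and 30. It had the same place in heat shock replicate 1 and the untreated list, and only replicate 2 differed. Smaller regions flanked it, chr8:145532432-145533996 in heat shock replicate 2 alone and chr8:145536977-145538707 in replicate 2 and the untreated list.

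Other members of the shared set are not chaperone genes. USPL1, a SUMO protease gene (chr13:31190920-31192725), scored 488, 518 and 271 at places 4, 2 and 4, and a region inside STARD13 (chr13:34116222-34117822), scored 410, 298 and 269 and was at place 5 throughout. PWWP3A, a chromatin protein gene (chr19:1353842-1355364), scored 226.6, 170.02 and 368 and was at places 12, 12 and 2, higher untreated. PGAM5, a mitochondrial phosphatase gene, was at places 9, 8 and 14, TRA2B, a splicing factor gene, at 11, 10 and 18, ATL3, an endoplasmic reticulum shaping gene, at 13, 15 and 24, and DGKE, a diacylglycerol kinase gene, at 17, 11 and 32. These 4 and a region inside GNG7 (26, 23 and 36) stood higher after heat shock. A region inside PRKCA, the protein kinase C alpha gene, was at 35, 30 and 15 and one at LRIF1 at 27, 24 and 19, both higher untreated.

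Unnamed regions made up the rest of the 12 and the 10. Those placed higher after heat shock were chr1:234911754-234919464 (places 10, 19 and 33), chrY:13480944-13486651 (14, 20 and 34), chr9:138017835-138019251 (16, 16 and 27), chr12:162326-167873 (19, 27 and 37) and chr1:142535218-142540183 (6, 6 and 9). The chrY region and the last of these lie within 2 Mb of a centromere or heterochromatin block. Those placed higher untreated were chr2:106535683-106537290 (32, 39 and 21) and chr13:21517218-21518549 (36, 32 and 22). The lowest-placed members, UBQLN1 (39, 35 and 38) and SPR (34, 26 and 39), were near the caller's limit in the untreated list, with scores of 52.6 and 50.9. Peaks of the same region had nearly the same centre: the median distance was 51 bp between the heat shock replicates and 77 and 89 bp from each to the untreated list. The untreated peak was the wider one at 28 and 31 of 39 regions.

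The 23 regions of both heat shock replicates alone were weaker, with a median rank of 51 (22 to 166) in replicate 1 and 47 (16 to 111) in replicate 2. The start shared by VRK3, a kinase gene, and ZNF473, a histone RNA processing gene (chr19:50528618-50529869), scored 127 and 137. HSP90 co-chaperones were here too, FKBP4 (chr12:2903335-2904544) with 111 and 87.7, and STIP1 (chr11:63952261-63954313), which joins HSP70 to HSP90, with 91.5 and 98.4. Other starts were ABHD3/MIB1 (129 and 66.8), NUDC (98.6 and 61.6), CCT7 (66.8 and 59.0) and PMVK (56.7 and 53.1), of which NUDC encodes an HSP90-linked chaperone and PMVK an enzyme of cholesterol synthesis. Regions inside TET1, a DNA demethylase gene (73.3 and 84.7), and TCF7L2, the Wnt pathway factor (56.1 and 103), were also held. VRK3/ZNF473 had the best rank of the class in replicate 2, 16. For comparison, the lowest score a list holds was 50.26 and 50.02 in the heat shock lists and 50.44 in the untreated list.

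The 13 unnamed regions of both heat shock replicates were in part clustered near centromeres. Within 2 Mb of a centromere or heterochromatin block lay 8 of the 23, among them 4 on chromosome 21 between chr21:11114473-11116947 and chr21:11185744-11187341. The others of these were chr2:91813895-91819614, chr4:49108776-49111049, chrY:13488395-13490349 and ABHD3/MIB1. The unnamed regions away from blocks were chr3:75695233-75700225 (106 and 113), chr5:10310082-10311503 (111 and 75.2), chr5:178011959-178013245 (61.7 and 73.7), chr8:58121980-58123258 (58.9 and 58.2), chr11:117688414-117689763 (118 and 51.9) and chr17:8128884-8130621 (77.5 and 94.0). Without regions near blocks the count of 23 became 15.

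The 25 regions of the untreated list alone had a median rank of 60 of 79 (27 to 79) and scores of 50.4 to 90.2. At gene starts were PTGES3, the HSP90 co-chaperone p23 (chr12:57080798-57083104, score 71.1), the start shared by JMJD6, a hydroxylase gene, and METTL23, a methyltransferase gene (chr17:74721944-74723940, 68.2), MAT2A, which makes S-adenosylmethionine (chr2:85765243-85767404, 50.5), and MORF4L2, a chromatin protein gene (chrX:102942205-102943612, 50.4). Regions inside MBP and TMPRSS9 scored 55.9 and 51.7. The highest unnamed members were chr10:42354717-42360011 (90.2), chr19:18740107-18741446 (77.8) and chr1:16161151-16163151 (71.9), and the other 16 scored from 50.7 to 63.3. Of the 25 regions, 12 (48.0%) lay on the 4 arms described below and 3 near a block. This class needed a peak in a single list, while that of both heat shock replicates had to be called in each. The counts and genomic places of these classes are therefore not like for like.

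Regions shared by the untreated list with 1 heat shock replicate held further named genes. SERPINH1, the collagen chaperone HSP47 (chr11:75272519-75273976), scored 102 in heat shock replicate 2 and 70.6 untreated, and was missing from replicate 1. A region inside KMT2A, the histone methyltransferase gene (chr11:118342003-118345571), had the second highest score of the untreated list, 397, but 64.4 and rank 126 in heat shock replicate 1, and no peak in replicate 2. KMT2A was also in 0 of the 3 KO lists. A region inside CRHR1 scored 70.3 in replicate 1 and 94.3 untreated.

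Single replicates carried a few classical targets as well. Heat shock replicate 1 alone held AHSA1 (58.2), the activator of the HSP90 ATPase, CHORDC1 (52.2), another HSP90 co-chaperone, and a region inside BAG3 (53.9), a partner of HSP70. It also held the starts of RBM23 (52.2), UBE2D3 (57.6), NUDT9 (109) and TIMM21 (74.8). The highest unnamed regions of that list alone were chr2:133025995-133032062 (314), chrY:58976794-58981552 (162), chrY:13447354-13451944 (120) and chr17:1156632-1157667 (102). In heat shock replicate 2 alone the highest were chr8:145532432-145533996 (102), chr16:89431177-89433405 (88.0), chr14:65688613-65689970 (78.5), chr17:45930550-45932060 (75.2) and chr17:55646304-55648525 (74.7).

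By gene list, the WT regions covered cytosolic HSP90 fully and other groups in part. Since genes were attached by hand to 53 regions, no share over all genes can be set beside these counts, and they describe coverage only. At a start they held 2 of 2 cytosolic HSP90 genes, 6 of 15 HSP90 co-chaperones, 3 of 8 TRiC subunits, 2 of 8 mitochondrial chaperones and 1 of 4 HSP110 genes. Among 16 DNAJ co-chaperones, 16 small heat shock and BAG proteins, 8 HSP70 and 7 endoplasmic reticulum chaperones there was 1 each. DNAJB1, the partner of inducible HSP70, was not among them, since no WT region lay on chromosome 19 between 5866089 and 18438957. The 6 co-chaperone genes fell into 4 classes: ST13 in all 3 lists, STIP1 and FKBP4 in both heat shock replicates, PTGES3 untreated, and AHSA1 and CHORDC1 in heat shock replicate 1 alone. The genes of other stress responses gave 0 of 10 for immediate early genes and 0 of 6 for endoplasmic reticulum stress. Of 10 examples of genes bound by HSF1 in tumour cells, RBM23 and MRPL18 had a region at the start and PRKCA inside. HSF1 and its regulators had 0 of 8 at a start and HSF1 itself inside the gene.

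Chromosome position differed between the classes, which also differ in how many lists had to hold a region. Of all 317 regions, 164 (51.7%) lay on the 8q, 10q, 16q and 17q arms, of which HCT116 is known to carry extra copies. The share was 17.9% (7) for regions of all 3 lists and 13% (3) for those of both heat shock replicates, against 48.0% (12) for the untreated list alone, 59.2% (90) for heat shock replicate 1 alone and 77.8% (49) for replicate 2 alone. Of the 90 and 49 regions on these arms in 1 heat shock replicate, 2 and 2 lay within 10 kb of a region of the other replicate, and the median distance was 452 kb and 198 kb. Elsewhere in the genome the median distance was 6970 kb and 3040 kb. Within 100 kb of a peak of the other replicate lay 25 of 90 and 17 of 49 arm regions. Elsewhere these numbers were 17 of 62 and 4 of 14 within 100 kb, and 6 of 62 and 1 of 14 within 10 kb. Lack of overlap with the other replicate was set by the class, so the distances describe spacing only. Extra DNA copies and HSF1 occupancy were not separated here, since copy number was not measured, and their part in these counts was not tested.

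The KO lists, which the classing did not use, held most of the WT regions that lay elsewhere in the genome. They hold 1566, 3257 and 2866 peaks, many more than the WT lists, and their depth is unknown. Their peaks are also much narrower, with median widths of 155, 181 and 173 bp. In the WT lists these are 1468 and 1443 bp after heat shock and 1656 bp untreated. Any overlap counted as a hit, so a wide WT region can be found through a narrow, low-ranked KO peak. Of the 39 regions of all 3 lists, 37 (94.9%, exact 95% interval 82.7 to 99.4) had a peak in each KO list. Of the 23 of both heat shock replicates, 19 (82.6%) were in KO heat shock replicate 1, 21 (91.3%) in replicate 2 and 20 (87.0%) in the untreated KO list. Of the 25 of the untreated list, the numbers were 13 (52.0%), 14 (56.0%) and 16 (64.0%). The share of heat shock regions rested on both replicates: with either left out, 43 and 44.6% of the heat shock regions not in the untreated list had a peak in at least 1 KO list, against 91.3% of the 23. In a single heat shock replicate, 95 of 152 and 47 of 63 regions were in no KO list. The exact intervals cover counting error only.

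Away from the 4 arms and the blocks, most regions of every class had a KO peak. All 12 such regions of both heat shock replicates (interval 73.5 to 100%) and all 11 of the untreated list (71.5 to 100%) were in at least 1 KO list, as were 27 of 28 of all 3 lists, 29 of 38 of heat shock replicate 1 (76.3%, 59.8 to 88.6) and 9 of 12 of replicate 2 (75.0%). On the arms the corresponding numbers were 10 of 89 (11.2%, 5.5 to 19.7) for heat shock replicate 1 and 6 of 49 (12.2%, 4.6 to 24.8) for replicate 2, and 5 of 11 for the untreated list. Here 1 arm region each of heat shock replicate 1 and of the untreated list, which also lie near a block, are counted with the blocks. The untreated KO list held all 12 regions of both heat shock replicates, and 10 of the 11 untreated regions were in all 3 KO lists, heat shocked ones included. The WT class of these regions thus did not recur in the KO lists as presence or absence. Those lists are much longer than the WT lists and any overlap counted, which leaves little room for absence. Presence in them therefore cannot decide whether the class recurs.

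**Figure D3:**
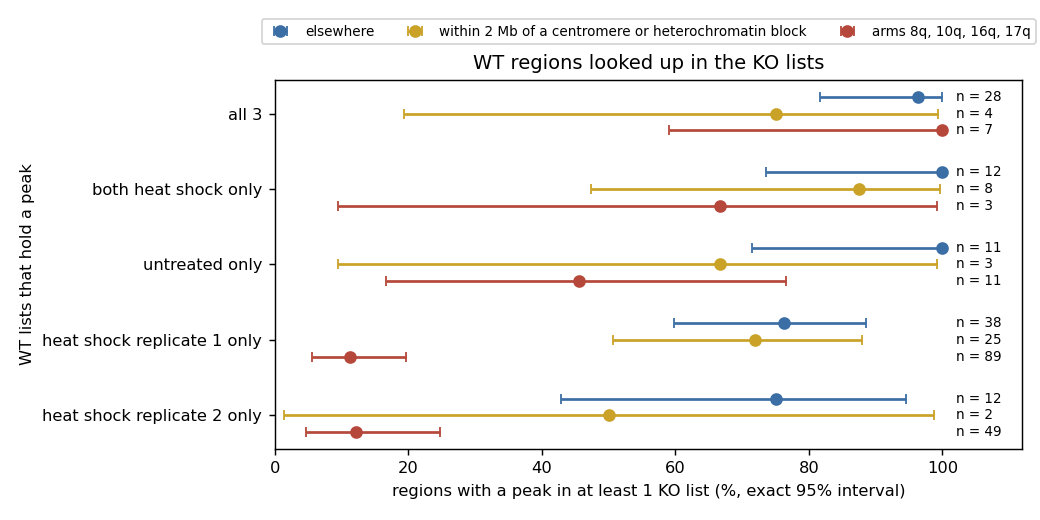
Share of WT regions with a peak in at least 1 KO list (x axis, percent, with exact 95% intervals) for each WT class (y axis), drawn apart for regions on the 8q, 10q, 16q and 17q arms, near a block, or elsewhere. Regions elsewhere lie at 75.0% or above in every class shown, while arm regions of a single heat shock replicate lie at 11.2% and 12.2%.

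Ranks in the KO lists, which differ in length and show no change by themselves, placed the same regions as follows. STIP1, with no peak in untreated WT cells, ranked 9 and 10 after heat shock in KO and 13 in the untreated KO list. VRK3/ZNF473 ranked 27, 20 and 16, FKBP4 79, 40 and 51, CCT7 85, 55 and 85, and NUDC 175, 80 and 118. PMVK ranked 20, 24 and 96, ABHD3/MIB1 67, 47 and 133, and TET1 12, 235 and not at all, while TCF7L2 was in none. STIP1 was thus among the top peaks of each KO list, while TET1 and TCF7L2 were not called in untreated KO cells. Of the untreated WT class, PTGES3 ranked 46, 49 and 25, JMJD6/METTL23 770, 89 and 61, MAT2A 179, 96 and 95, MORF4L2 126, 77 and 64, MBP 90, 84 and 79, and TMPRSS9 63, 60 and 38.

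**Figure D4:**
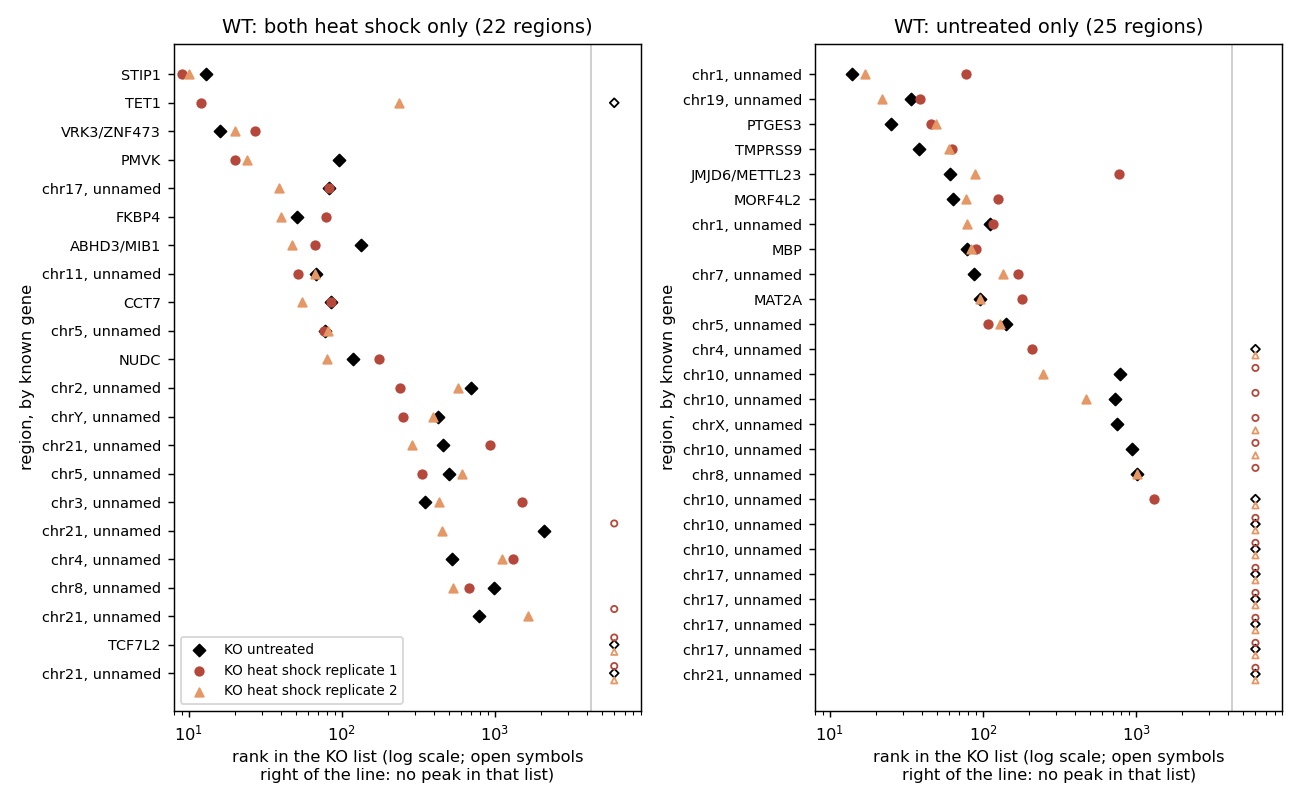
Rank in each KO list (x axis, log scale, 1 is the highest score) of 22 of the 23 WT regions of both heat shock replicates (left) and the 25 of the untreated list (right), with 1 row a region (y axis) and open symbols where a KO list has no peak. STIP1 and VRK3/ZNF473 have filled symbols for all 3 KO lists at ranks of 27 or better, and many unnamed untreated regions have open symbols.

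Places were then compared among the 121 WT regions that have a peak in all 3 KO lists, since lists of different length give no comparable ranks. Of the 18 regions of both WT heat shock replicates, 7 stood higher in both KO heat shock lists than in the untreated KO list, 3 stood lower in both and 8 lay between. Their median places were 58.5, 57.5 and 68.5. Of the 11 regions of the untreated WT list, 1 stood higher, 8 stood lower and 2 lay between, with median places of 65, 60 and 50. The 6 named ones were all among the 8: PTGES3 stood at 39, 44 and 23, TMPRSS9 at 49, 52 and 35, and MORF4L2 at 70, 58 and 50. Of the first class, PMVK stood at 18, 22 and 65 and ABHD3/MIB1 at 50, 42 and 76, among the 7 placed higher. VRK3/ZNF473, at 24, 18 and 16, was among the 3 that stood lower, and FKBP4, at 56, 36 and 41, lay between. Over all 121 regions the numbers were 30, 50 and 41, with 61 as the median in every list. The KO untreated library is a single one as well, so these orders have no test.

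Of the 39 shared WT regions, 37 had a peak in all 6 lists, which lets both lines be set side by side with the same 37 places. The KO peaks behind these places were much narrower than the WT peaks, as given above. Here a looser rule was used, under which the untreated place only had to lie outside both heat shock places, by any margin. In WT cells 15 of the 37 stood higher in both heat shock lists than in the untreated one, 13 stood higher untreated and 9 did neither. In KO cells 7 of the 37 stood higher after heat shock, 13 stood higher untreated and 17 did neither. Of the 15 in WT cells, 3 stood higher after heat shock in KO cells as well (the HSF1 gene, DGKE and GNG7) and 4 stood higher untreated there. The HSF1 gene does not meet the stricter rule used above for WT cells. Of the 13 that stood higher untreated in WT cells, 6 did so in KO cells (LRIF1, CCT4, PWWP3A, CCDC117, ST13/XPNPEP3 and chr2:106535683-106537290) and 3 stood higher after heat shock. Read against the KO totals over all 37 regions, these counts are no result about the WT groups. HSPA8 was at places 36, 34 and 12 in WT cells and 16, 10 and 11 in KO cells, so its low place after heat shock was seen in WT cells and not in KO cells, and this difference was not tested. HSPH1 was at 2, 3 and 7 in WT and 6, 5 and 5 in KO cells, and HSP90AB1 at 7, 7 and 17 against 7, 7 and 7. The scores of HSPD1/HSPE1, USPL1, HSP90AA1 and PWWP3A were tied at the top of the untreated KO list, and all but that of USPL1 were tied in KO heat shock replicate 2 as well, so the order there is not resolved and the call of PWWP3A in KO cells rests on ties.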

How the data were processed

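HSF1 peak lists of HCT116 cells were analysed as the authors deposited them. Each has a chromosome, start, end, name and score, and the score is the authors' deposited value, of unstated unit. The submitters' processing notes list CASAVA, Bowtie 0.12.7, MACS 1.4.2 and hg19 but give neither roles nor settings. The 4 input libraries were not used here. Groups came from the sample titles. Peaks of the 3 WT lists overlapping by at least 1 bp were joined into regions and classed by the lists that hold them. Scores ranked peaks within a list only. Genes were attached by hand from known hg19 positions, because no hg19 annotation was used here: 59 of 59 genes were on the same chromosome and 35 of 35 neighbouring regions in the same order in RefSeq GRCh38.p14. Planned promoter windows and motif searches in hg19 were replaced by RefSeq GRCh38.p14 promoters. Centromere and heterochromatin blocks and the gained arms are rounded positions from general knowledge. Shares have exact Clopper-Pearson 95% intervals. Joining and classing were tested on simulated lists.

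The rule set for naming regions took all members of classes of 25 or fewer and members of 14 gene lists. It also took up to 12 of other classes, ordered by their score in the weaker library, and up to 5 of single replicates. The text does not follow this rule throughout. More of the shared regions are named, and some members of the smaller classes are not. One region and the list that needs it are not reported here. Members and lists were chosen with earlier results of these data known. Alternatives were a score of at least 100, joining within 1000 bp, centres within 500 bp, chromosomes 1 to 22 and X, no widest 5%, equal list length, no gained arms, no blocks, and each heat shock replicate left out. Python 3.11.15, numpy 2.4.6, pandas 2.3.3, scipy 1.17.1 and matplotlib 3.10.9 were used.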

Additional observations from a re-analysis of the deposited data

Results flagged for a closer look

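At 7 of the 37 regions found in all 6 lists, the untreated place lay on one side of both heat shock places in WT cells and on the other side in KO cells. The looser rule, by any margin, was used here. Under it 15 of the 37 stood higher after heat shock and 13 higher untreated in WT cells, and 7 and 13 in KO cells. Another 3 and 6 regions stood on the same side in both lines. Set beside these totals, the count of 7 is no result about the lines. The differences below were not tested, and several are of only a few places. SPR (chr2:73114445-73115848) was at 32 and 26 after heat shock and 37 untreated in WT cells, and at 36 and 31 against 30 in KO cells. TCP1/MRPL18 (chr6:160210167-160211709) was at 35 and 28 against 10 in WT and at 11 and 9 against 12 in KO. PRKCA (chr17:64562651-64564238) was at 33 and 29 against 15 in WT and at 10 and 12 against 26 in KO. The region chr13:21517218-21518549 was at 34 and 31 against 22 in WT and at 25 and 30 against 31 in KO. CDK3 (chr17:73995911-73997350) was at 31 and 27 against 34 in WT and at 27 and 27 against 24 in KO. The region chr17:74454783-74457568 was at 19 and 13 against 25 in WT and at 20 and 25 against 15 in KO. The region chrY:13480944-13486651 was at 14 and 20 against 33 in WT and at 35 and 35 against 33 in KO.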

How the results depend on the processing

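The 23 regions of both heat shock replicates became 10 at a score of at least 100, 14 at equal list length and 15 without regions near a centromere or heterochromatin block, the last chosen after seeing the data. With either heat shock replicate left out, heat shock regions not in the untreated list numbered 86 to 175, since a single list then decides. The 25 untreated regions became 7 at a score of at least 100 and 13 without the 4 arms, and 30 to 35 with a replicate left out. With scores of 100 or more the 39 shared regions became 14, and they numbered 44 to 49 with a replicate left out. The other alternatives kept the 3 counts within 1.5 times. At equal list length the untreated list alone held 35 regions and all 3 lists 32. The cause of these shifts was not tested. Leaving out the widest 5% of every list lowered the share of shared regions found in KO to 42.9%, because it also removed wide KO peaks. The hg19 promoter and motif alternatives were not run. No paired analysis was possible because untreated WT cells have 1 library and no test was made. Unknown depth and single untreated libraries limit every count.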
